A study of Capra hircus with 2 samples.

Results

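The chemokines CCL20, CCL27 and CXCL14 were described across the cell types of goat skin. The 3 genes were taken by symbol from the 27137 features of the matrix, and each symbol was found once. Single-cell RNA sequencing had been done on scapular skin of 2 healthy Liaoning cashmere goats in anagen, the growth phase of the hair cycle, with 1 library from each goat. CT-LCG stands for the goat of the coarse type of cashmere, FT-LCG for that of the fine type. The labels name no treatment and do not say which sample is which type, so the type of each cell was read from the authors' table of kept cells. The authors kept 3443 cells of CT-LCG and 9608 cells of FT-LCG, with 27890472 and 85400323 UMIs (unique molecular identifiers, 1 per captured RNA molecule) and medians of 2314 and 6121.5 UMIs per cell. Since each fibre type is 1 goat, no test between the types was possible, and each interval below covers counting error only.

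Chemokines are small secreted proteins that guide cells along their gradients through receptors on the cell surface. CCL20 is the ligand of CCR6, found on dendritic cells and on T cells that make interleukin 17, and epithelial cells produce it under inflammatory signals. CCL27, also called cutaneous T-cell attracting chemokine, is made by keratinocytes and acts through CCR10 on skin-homing T cells. CXCL14 is produced by resting epithelia and by stromal cells, and its receptor is less settled.

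A level is the sum of a gene's UMIs in a class of 1 library per 10000 UMIs of that class, with exact Poisson 95% intervals. Where a pair of values is given without names, CT-LCG comes first. Epidermal cells were placed in layers by their keratins, since basal cells carry KRT14 and cells that leave the basal layer replace it with KRT10. The basal bin held cells with a KRT10 share of KRT14 plus KRT10 UMIs under 0.1, the lower and upper transitional bins met at a share of 0.5, and the spinous bin began at 0.9. The basal bin held 136 cells of CT-LCG and 1611 of FT-LCG, and the spinous bin 1025 and 1508. Other classes were clusters named from marker lists, made without any chemokine among the clustering genes.

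The granular bin (LOR, a cornified envelope protein, at 10 or more UMIs per 10000) was made mostly of shallow cells: 49 of 58 cells in CT-LCG and 695 of 796 in FT-LCG had under 2000 UMIs. The granular layer is therefore described by the granular layer-like cluster of 151 and 472 cells, with the values of the bin beside it. Of the cells of this cluster, 126 and 328 also lie in the spinous bin, so it is not a layer apart from that bin. The upper transitional bin was shallow too, with medians of 1130 and 1319 UMIs, and 692 of 1028 and 876 of 1587 of its cells came from an unnamed shallow cluster with KAP8, KRTAP11-1 and TCHH, genes of the hair shaft and its inner sheath, among its leading genes. The lower transitional bin, with medians of 6693 and 2062 UMIs, took 35 of 211 and 420 of 1315 cells from the same cluster. KRT14, which fibroblasts should lack, stood at 5.36 UMIs per 10000 in the fibroblast-like cells of CT-LCG and 28.3 in those of FT-LCG. The libraries shared 11 barcode sequences among the kept cells.

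Among the layers of the epidermis, CCL27 was highest in the basal layer and lower in each bin from there to the spinous bin. Its level in the basal bin was 17.3 (95% interval 16.7 to 17.9) in CT-LCG and 25.6 (25.3 to 25.8) in FT-LCG. It was 3.56 and 5.03 in the lower transitional bin, 0.668 and 2.09 in the upper transitional bin and 0.150 and 0.287 in the spinous bin. No neighbours among these 4 bins had overlapping intervals. The shallow cluster that gave part of the transitional cells had CCL27 at 1.98 and 6.03. The part of this cell mix and of free RNA in the transitional levels was not tested. In the granular bin, with its shallow cells, the level was higher again than in the spinous bin, 0.410 (0.234 to 0.666) in CT-LCG and 2.82 (2.63 to 3.03) in FT-LCG.

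The basal level of CCL27 was 115-fold above the spinous level in CT-LCG and 89.0-fold in FT-LCG, a mean log2 ratio of 6.66 ± 0.261 (SD over the 2 libraries). The ratio was smaller in CT-LCG when cells were thinned to 1000 UMIs, where spinous against basal was -5.23 (CT-LCG) and -6.32 (FT-LCG) on the log2 scale, and as a mean over cells, where it was -5.07 and -6.05. Across the 9947 genes that had 100 or more UMIs in both libraries, 2.54% were at least 2-fold higher in basal than in spinous cells in both, on levels with 0.1 added. In the granular layer-like cluster CCL27 stood at 0.101 and 0.260, and in the spinous cells outside that cluster at 0.164 and 0.317. Over the 16 clusters, the basal epidermal-like cluster ranked first for CCL27 in both libraries and the granular layer-like cluster last.

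From the basal to the lower transitional bin, CCL27 dropped more than KRT14, the keratin that defines the basal layer. In basal cells there were 6.52 CCL27 UMIs per 100 KRT14 UMIs for CT-LCG and 8.13 for FT-LCG. In the lower transitional bin there were 1.89 and 2.52. In the spinous bin the ratio was 3.88 and 4.00, beside 4.47 and 5.29 in the barcodes that the authors left out, whose medians were 716 and 607 UMIs. The spinous ratio lay below those of the left-out barcodes and of basal cells in both libraries, and all kept cells together had 3.66 and 5.95. The spinous bin is itself defined by few KRT14 UMIs, which enter the ratio. The left-out barcodes had up to 500 genes and are not a measure of free RNA alone. The part of free RNA in the CCL27 UMIs of spinous cells was not tested.

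After each cell was thinned to 1000 UMIs, 50.0% of basal cells for CT-LCG (exact binomial interval 41.3 to 58.7) and 52.7% for FT-LCG (50.2 to 55.2) held a CCL27 UMI. Without thinning the shares were 87.5% and 75.7%. In endothelial-like cells, which should lack the gene and had medians of 1908.5 and 2760 UMIs against 13346 and 9404 in basal cells, the thinned shares were 6.82% and 8.70%, and in spinous cells 4.35% and 3.06%. The spinous shares were under those of endothelial-like cells and are read as background, and the basal intervals lay above the background shares.

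**Figure D1:**
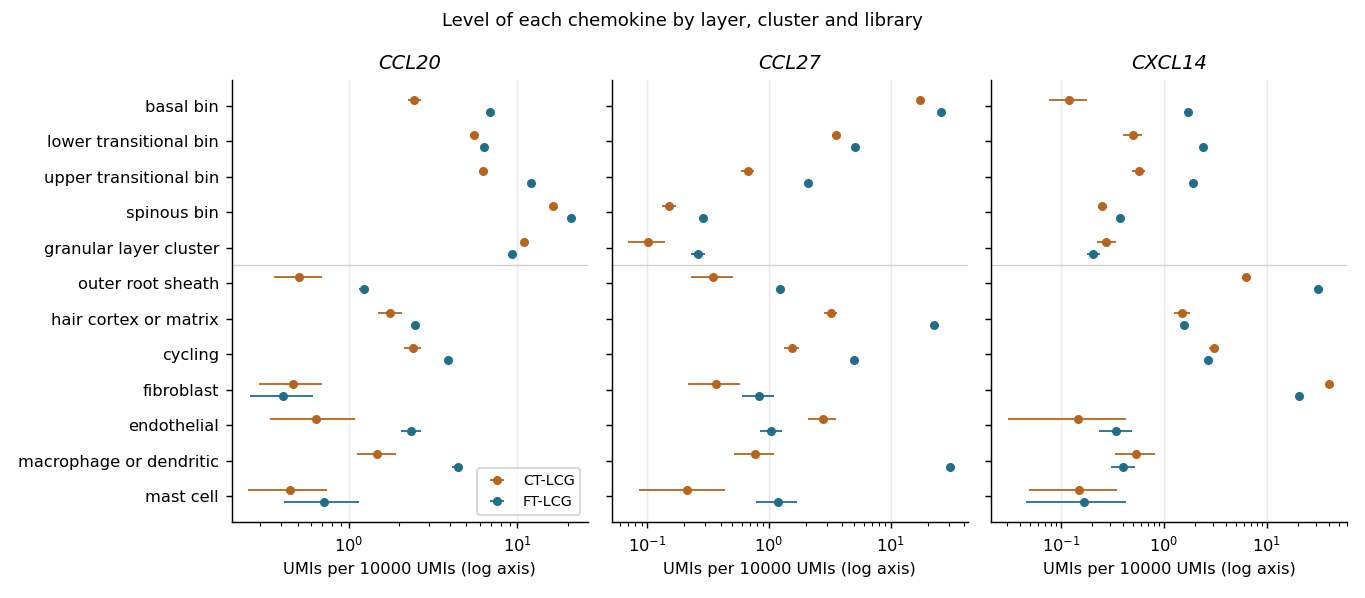
Levels of CCL20, CCL27 and CXCL14 (UMIs per 10000 UMIs, log axis) in the layers of the epidermis (above the grey line) and in other clusters (below it), for CT-LCG (brown) and FT-LCG (blue), with exact Poisson 95% intervals as bars. CCL27 lies at 17.3 and 25.6 in the basal bin, CCL20 at 16.2 and 20.8 in the spinous bin, and CXCL14 at 40.4 and 20.7 in the fibroblast-like cluster.

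Within the basal bin, the 2 libraries had different courses. Among cells with a KRT10 share under 0.02, CCL27 was 15.7 for CT-LCG (18 cells) and 36.4 for FT-LCG (674 cells). At shares of 0.02 to 0.05 the levels were 19.2 and 19.6, and at 0.05 to 0.1 they were 15.9 and 9.94. In FT-LCG the level thus declined from the first step on, whereas in CT-LCG it stayed between 15.7 and 19.2. The 1.48-fold higher basal level of CCL27 in FT-LCG depended on which cells were taken. Without the first step, which held 674 of 1611 basal cells in FT-LCG, the log2 ratio of FT-LCG to CT-LCG was -0.13, and in the basal cells of the basal epidermal-like cluster alone it was 0.97. Both were computed after the data were seen.

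**Figure D2:**
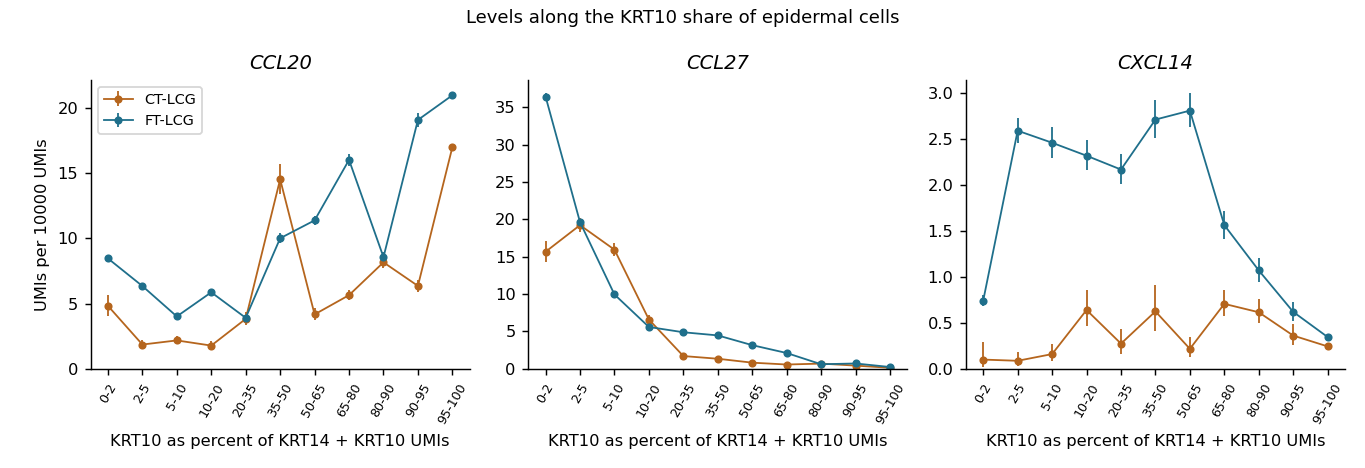
Levels of the 3 chemokines (UMIs per 10000 UMIs, vertical axis) in 11 steps of the KRT10 share of KRT14 plus KRT10 UMIs, from basal at the left to spinous at the right, for CT-LCG (brown) and FT-LCG (blue), with exact Poisson 95% intervals. CCL27 goes from 15.7 and 36.4 in the first step to 0.129 and 0.235 in the last, while CCL20 in FT-LCG goes from 8.47 to 21.0.

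Outside the epidermal layers, CCL27 was low in the outer root sheath-like cluster, which wraps the hair shaft and is marked here by SFRP1. The level there was 0.348 (CT-LCG) and 1.22 (FT-LCG), 49.6-fold and 20.9-fold below the basal bin, although KRT14 stood at 76.3 and 160 in the same cells. The share of all genes at least 2-fold higher in basal than in outer root sheath-like cells in both libraries was 0.844%. The cells of this cluster held only 0.456 and 0.763 CCL27 UMIs per 100 KRT14 UMIs, against 6.52 and 8.13 in basal cells. Cells rich in KRT14 thus differed in CCL27, which was high in the basal epidermis and low in the follicle sheath.

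Other classes also held CCL27 in FT-LCG. Its level in the macrophage- or dendritic-like cluster was 0.765 (CT-LCG) and 30.5 (FT-LCG), the latter above the basal bin, and KRT14 was 9.46 and 203. T cell genes were among the genes of this cluster as well, so its values in the goats need not come from the same mix of cells. In FT-LCG 7 of the 123 cells of this cluster held 50% of its CCL27 UMIs, and 9 cells held 50% of its KRT14 UMIs. In cells named as hair cortex- or matrix-like, CCL27 was 3.22 and 22.7, beside KRT14 at 105 and 263. In an unnamed cluster led by FCGBP, KRT14 and HAS3 it was 0.707 and 16.1, beside KRT14 at 152 and 366. KRT14 was thus also higher in FT-LCG in these classes, but by less than CCL27. In the macrophage- or dendritic-like cluster CCL27 was 39.8-fold and KRT14 21.4-fold higher in FT-LCG. CCL27 UMIs per 100 KRT14 UMIs were 3.06 and 8.63 in hair cortex- or matrix-like cells, against 6.52 and 8.13 in basal cells. In FT-LCG this ratio was also above the basal one in the macrophage- or dendritic-like cluster, and below it in the unnamed cluster. Whether the RNA came from keratinocytes caught with the other cell was not tested.

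CCL20 was expressed in the opposite direction, from low in the basal layer to high in the spinous layer. The level was 2.46 (2.24 to 2.69) in the basal bin of CT-LCG and 6.88 (6.76 to 7.01) in that of FT-LCG. It was 5.57 and 6.31 in the lower transitional bin, 6.30 and 12.1 in the upper transitional bin and 16.2 and 20.8 in the spinous bin. The part of the cell mix and of free RNA in the transitional levels was again not tested. The spinous level was 6.61-fold above the basal level in CT-LCG and 3.02-fold in FT-LCG, with a mean log2 ratio of 2.16 ± 0.799 (SD over the 2 libraries). For comparison, 3.17% of all genes were at least 2-fold higher in spinous than in basal cells in both libraries.

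In the granular layer-like cluster, which shares cells with the spinous bin, CCL20 was 11.0 (CT-LCG) and 9.30 (FT-LCG). In the spinous cells outside that cluster it was 17.3 and 24.1, and in the cells of the cluster outside the spinous bin 7.17 (25 cells) and 5.53 (144 cells). The granular bin had 6.79 and 8.18. All these granular values were below the spinous ones in both libraries. The suprabasal epidermal-like cluster, with KRT4, KRT10 and SPINK7 among its leading genes, ranked first of the 16 clusters in both libraries, at 19.7 and 27.3. CCL20 was low in outer root sheath-like cells, at 0.509 and 1.23. It was also low in fibroblast-like cells, at 0.466 and 0.411, the last of all clusters in FT-LCG. In hair cortex- or matrix-like cells it was 1.77 and 2.47. The unnamed shallow cluster with KAP8, KRTAP11-1 and TCHH among its leading genes had 4.68 and 11.2, rank 3 of the clusters in FT-LCG. The outer root sheath-like level was 4.82-fold and 5.61-fold below the basal level.

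The climb of CCL20 was not even along the KRT10 share. In CT-LCG the level was 14.5 at shares of 0.35 to 0.5 and 4.17 in the next step. In FT-LCG it was 16.03 at 0.65 to 0.8 and 8.57 at 0.8 to 0.9. These steps differed by more than their counting intervals, which do not cover the spread between cells. The step at 14.5 in CT-LCG held 629 UMIs in 70 cells. Whether a few cells made the uneven course was not tested.

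CCL20 was concentrated in few cells. In the spinous bin 34 of 1025 cells (3.32%) of CT-LCG held 50% of the CCL20 UMIs, as did 54 of 1508 cells (3.58%) of FT-LCG. KRT10 in the same cells needed 15.3% and 21.2% of the cells for the same share. KRT10 defines this bin and had 537690 and 919725 UMIs there, against 25402 and 44706 of CCL20. Its wide spread was therefore set in advance and does not measure how unusual CCL20 is. The top 10% of spinous cells held 84.6% and 82.5% of the CCL20 UMIs. The highest cell carried 775 UMIs of CCL20 (CT-LCG) and 1073 (FT-LCG), whereas 51.9% and 53.1% of the spinous cells had none.

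The basal bin showed this even more. In CT-LCG 2 of 136 basal cells held 50% of the 472 CCL20 UMIs, and in FT-LCG 28 of 1611 cells held 50% of 11895. When the highest 2% of cells in each class were left out, the basal level was 0.943 and 3.23 and the spinous level 10.9 and 13.8, so the spinous level stayed above the basal level in both libraries. CCL27 was spread more widely in its own layer: 14 of 136 and 139 of 1611 basal cells, 10.3% and 8.63%, held 50% of its UMIs. In the lower transitional bin 3.79% and 2.59% of cells held 50% of the CCL27 UMIs, shares like those of CCL20 in the spinous bin.

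**Figure D3:**
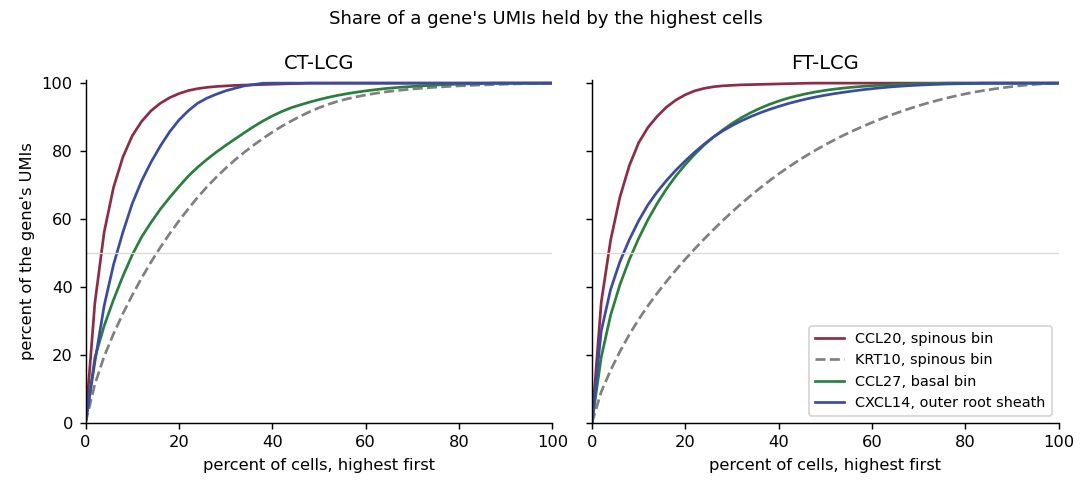
Cumulative percent of a gene's UMIs (vertical axis) held by the highest cells (horizontal axis, percent of cells) in CT-LCG and FT-LCG, for CCL20 and KRT10 in the spinous bin, CCL27 in the basal bin and CXCL14 in the outer root sheath-like cluster. The CCL20 curve is the steepest, with 84.6% and 82.5% of its UMIs in the top 10% of cells.

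After thinning to 1000 UMIs, 27.5% of spinous cells for CT-LCG and 26.4% for FT-LCG held a CCL20 UMI, against 8.82% and 12.5% of basal cells. Without thinning the spinous shares were 48.1% and 46.9%. As background, the thinned shares were 7.77% and 6.60% in fibroblast-like cells and 9.09% and 10.1% in endothelial-like cells. The intervals of the basal shares, 4.64 to 14.9% and 10.9 to 14.2%, overlapped those of endothelial-like cells, so the share of basal cells with CCL20 was not distinguishable from background at this depth, and the basal level rested on few cells. The thinned shares of the upper transitional bin, 30.5% and 46.2%, and that of the lower transitional bin in FT-LCG, 29.1%, were above those of the spinous bin, while their levels were lower; no order was read from this.

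Spinous cells rich in CCL20 were compared with spinous cells without it, at 5000 or more UMIs per cell. The rich cells (50 or more UMIs of CCL20 per 10000) numbered 70 (CT-LCG) and 141 (FT-LCG), with 279 and 672 cells at 0. The classes had like levels of KRT10, 337 and 438 in the rich cells and 348 and 423 in the others. The rich cells were deeper, with medians of 24143 and 17612 UMIs against 19857 and 12524. They came more from the suprabasal epidermal-like cluster, 49 of 70 and 111 of 141, than did the cells at 0, 132 of 279 and 289 of 672.

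NF-kB is the transcription factor of inflammatory signalling that is known to drive CCL20. Of 15 measured genes in a list of NF-kB response genes, 11 were higher in the CCL20-rich cells in both libraries and 1 was lower in both, with a median log2 difference of 0.60 (CT-LCG) and 0.71 (FT-LCG). Over all 9947 genes 3070 were higher in both and 3603 lower in both, with medians of 0.00 and -0.04. Only BIRC3, an inhibitor of apoptosis, was at least 2-fold higher in both libraries, at 2.60 against 1.24 in CT-LCG and 1.15 against 0.344 in FT-LCG. NFKB1, a subunit of the factor, had log2 differences of 0.90 and 1.27, and TNFAIP3, a feedback inhibitor, of 0.65 and 1.18. Among all genes 0.292% were at least 2-fold higher in the rich cells in both libraries. Within the suprabasal epidermal-like cluster alone 8 genes of the list were higher in both libraries and 1 lower in both, and the median was 0.30 and 0.33. In that cluster 2726 of all 9947 genes were higher in both and 3595 lower in both, with medians of -0.02 and -0.03. BIRC3 was there at 0.74 and 1.12 on the log2 scale, so it was not 2-fold higher in both.

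Immediate early genes respond within minutes to stimulation and to tissue dissociation, and most of those listed went the other way. Of 17 measured, 10 were lower in the CCL20-rich cells in both libraries, with medians of -0.44 and -0.34 over the list. The 3 genes EGR2, EGR3 and KLF4 were higher in both. FOS was 7.98 in the rich cells against 24.4 in the cells at 0 in CT-LCG, and 8.67 against 39.2 in FT-LCG. FOSB, JUN and EGR1 were also at least 2-fold lower in both libraries, which was the case for 4 of 17 genes of the list and for 0.603% of all genes. Within the suprabasal epidermal-like cluster the medians were -0.46 and -0.35, and FOS differed by -1.57 and -1.83 on the log2 scale. There JUN and EGR1 were still at least 2-fold lower in both libraries, whereas FOSB, at -1.21 and -0.98, was not.

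**Figure D4:**
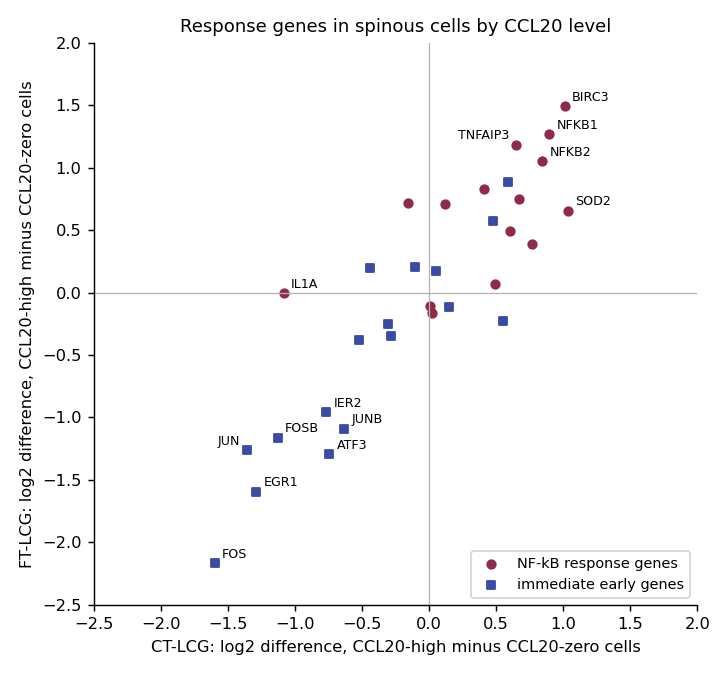
Log2 difference between CCL20-rich and CCL20-free spinous cells in CT-LCG (horizontal axis) and FT-LCG (vertical axis) for the measured NF-kB response genes (red circles) and immediate early genes (blue squares). BIRC3 lies at 1.01 and 1.49, and FOS at -1.60 and -2.17.

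Apart from CCL20, the gene with the largest difference, ranked by the smaller of its values in the 2 libraries, was IL25, a cytokine that epithelia can release. This gene and those that follow were chosen after their values were seen. Its level was 2.59 in the rich cells and 0.345 in the cells without CCL20 in CT-LCG, and 3.68 and 0.375 in FT-LCG. Others at the top of the same ranking were NR4A3, HCAR2, EDN1 and REL. NR4A3 is a nuclear receptor that was not on the list of immediate early genes above. HCAR2 is a receptor for niacin and ketone bodies, EDN1 the peptide endothelin and REL another NF-kB subunit. REL stood at 9.91 against 4.42 in CT-LCG and at 3.58 against 1.22 in FT-LCG.

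CXCL14 was highest in the fibroblast-like and outer root sheath-like clusters and low in every epidermal layer. The fibroblast-like cluster was first in CT-LCG, at 40.4 (38.6 to 42.2), and second in FT-LCG, at 20.7 (19.5 to 21.9). The outer root sheath-like cluster was second in CT-LCG, at 6.23 (5.68 to 6.82), and first in FT-LCG, at 31.6 (31.2 to 32.0). The next cluster in FT-LCG, unnamed and led by CRYAB and COL12A1, had 6.23, and the cycling cluster had 3.06 (CT-LCG) and 2.71 (FT-LCG). The suprabasal epidermal-like, granular layer-like, endothelial-like and mast cell-like clusters were all under 0.4 in both libraries.

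Against the basal bin, CXCL14 was 52.0-fold higher in outer root sheath-like cells of CT-LCG and 18.5-fold in those of FT-LCG. The share of all genes at least 2-fold higher there in both libraries was 1.85%. In fibroblast-like cells it was 337-fold and 12.2-fold above the basal bin, beside 5.4% of all genes. The libraries differed in these ratios most through the basal level, 0.1197 (23 UMIs) in CT-LCG and 1.70 (2941 UMIs) in FT-LCG. Since the CT-LCG basal value rests on 23 UMIs, its ratios carry wide counting intervals, 5.10 to 6.37 on the log2 scale for the outer root sheath-like cells.

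After thinning to 1000 UMIs, a CXCL14 UMI was found in 29.4% of outer root sheath-like cells for CT-LCG and 69.6% for FT-LCG, and in 64.1% and 36.8% of fibroblast-like cells. In endothelial-like cells the shares were 2.27% and 7.25%. In basal cells a UMI was found at that depth in 0 of 136 cells of CT-LCG, which allows up to 2.21% of cells with a UMI and does not limit the share expressing the gene, and in 11.1% of FT-LCG. The basal interval of FT-LCG, 9.60 to 12.7%, overlapped that of its endothelial-like cells, 3.53 to 12.9%. The unthinned shares of basal cells were 12.5% and 39.3%.

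Across the epidermal bins CXCL14 was highest in the transitional ones in both libraries. The levels were 0.503 and 2.37 in the lower transitional and 0.569 and 1.91 in the upper transitional bin. Of these 2 bins the upper was higher in CT-LCG, with overlapping intervals, and the lower was higher in FT-LCG. The ratio of the ends also had opposite signs. The spinous level was 0.252 in CT-LCG, 2.10-fold above its basal level, and 0.375 in FT-LCG, 4.54-fold below its basal level. In FT-LCG the gene was at 0.742 in the cells with a KRT10 share under 0.02, at 2.59 in the next step and at 0.345 in the last, so its low point in the basal bin lay where CCL27 was highest. All these levels were below those of the left-out barcodes, 5.57 (FT-LCG) and 1.62 (CT-LCG). The part of free RNA in them was not tested. The bins also drew on unnamed clusters. In FT-LCG the cluster led by CRYAB and COL12A1, with CXCL14 at 6.23, gave 205 basal and 126 lower transitional cells. The shallow cluster with KAP8, KRTAP11-1 and TCHH, at 5.41, gave 420 lower and 876 upper transitional cells. The part of this mix in the order of the bins was not tested.

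Within the outer root sheath-like cluster the level followed the marker SFRP1, a secreted inhibitor of WNT signalling. Cells with an SFRP1 UMI had CXCL14 at 10.7 for CT-LCG (44 cells) and 36.7 for FT-LCG (573 cells). Cells without one had 1.23 (45 cells) and 15.1 (162 cells). In CT-LCG the cells without an SFRP1 UMI were shallower, with a median of 2316 UMIs against 5677.5. At 1000 UMIs per cell the cells were sorted again by their thinned SFRP1 counts, so some moved to the group without. The levels were then 23.6 with SFRP1 (25 cells) and 6.17 without (60 cells) in CT-LCG. In FT-LCG they were 52.3 (317 cells) and 34.7 (383 cells), so the order stayed in these redrawn groups.

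Within the fibroblast-like cluster CXCL14 was unevenly divided. RSPO3, WIF1 and CORIN are genes of the dermal papilla, the group of fibroblasts at the base of the follicle. Cells with a UMI of any of them had CXCL14 at 53.3 (CT-LCG) and 78.6 (FT-LCG). Cells without had 17.3 and 9.97, and it was these that carried COL1A1, the main collagen of the dermis, at 107 and 104 against 6.31 and 19.1. At 1000 UMIs per cell the cells were likewise sorted again by their thinned counts. The levels were then 43.8 with a papilla gene (45 cells) and 30.2 without (58 cells) in CT-LCG. In FT-LCG they were 107.5 (8 cells) and 13.3 (98 cells). Without thinning, cells with a papilla gene were 59 of 109 in CT-LCG and 14 of 119 in FT-LCG. The level over the whole cluster was 1.95-fold higher in CT-LCG, whereas among the cells with a papilla gene FT-LCG was higher, by 0.56 on the log2 scale, an alternative added after the data were seen. The direction between the goats in this cluster therefore depended on which cells were taken.

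**Figure D5:**
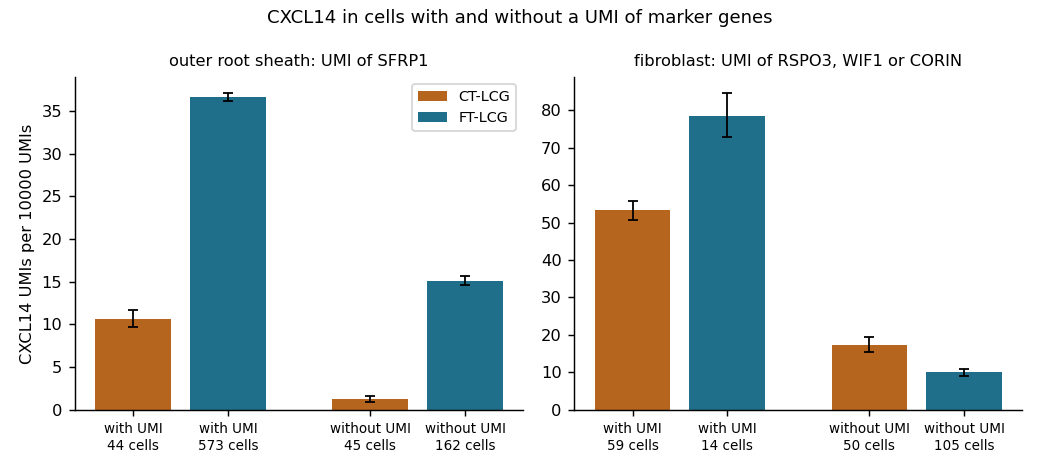
CXCL14 level (UMIs per 10000 UMIs, bars from 0 with exact Poisson 95% intervals) in outer root sheath-like cells with and without an SFRP1 UMI and in fibroblast-like cells with and without a UMI of RSPO3, WIF1 or CORIN, for CT-LCG (brown) and FT-LCG (blue). The level is higher with the marker genes in both libraries, 53.3 against 17.3 and 78.6 against 9.97 in the fibroblast-like cells.

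Between the goats, the 3 genes were compared in each class without a test. In basal cells CXCL14 was 14.2-fold higher in FT-LCG (log2 3.83, counting interval 3.24 to 4.49), CCL20 was 2.80-fold higher (1.49, 1.35 to 1.62) and CCL27 1.48-fold higher (0.57, 0.52 to 0.62). For CXCL14 the basal log2 ratio ran from 2.80 with other bin limits to 5.06 with 20 principal components. The basal bin drew on different clusters, with 116 of 136 cells in CT-LCG and 832 of 1611 in FT-LCG from the basal epidermal-like cluster. In those cells alone CXCL14 was 0.104 (17 UMIs) and 1.10, a log2 ratio of 3.40 added after the data were seen. In the left-out barcodes all 3 genes also were higher in FT-LCG. CXCL14 was there at 5.57 against 1.62, CCL20 at 8.18 against 4.46 and CCL27 at 5.82 against 2.39. The median log2 difference of all genes was 0.01, and 1.68% of genes were at least 2-fold higher in FT-LCG. KRT14 was 1.19-fold higher there, and KRT10 1.37-fold higher in CT-LCG. In the spinous bin CCL20 was 1.28-fold higher in FT-LCG, CCL27 1.91-fold and CXCL14 1.49-fold, so none of the 3 passed 2-fold, against 0.684% of all genes. As means over spinous cells, CCL20 stayed higher in FT-LCG, at 11.7 and 16.2. CCL27, at 0.550 and 0.379, and CXCL14, at 0.408 and 0.369, were higher in CT-LCG. For these 2 genes, low in this bin, the direction depended on the measure.

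In the outer root sheath-like cluster all 3 were at least 2-fold higher in FT-LCG on summed UMIs, beside 1.33% of all genes. CXCL14 was 5.06-fold higher, with a log2 ratio of 2.34 that was 1.72 with 20 principal components and 1.16 without Harmony, the step that aligns the libraries. CCL27 was 3.51-fold higher (log2 1.25 to 2.43) and CCL20 2.41-fold (0.80 to 1.78), on 26 and 38 UMIs in CT-LCG. KRT14 was also 2.10-fold higher in that cluster in FT-LCG, and the cluster held 89 cells of CT-LCG and 735 of FT-LCG. In the fibroblast-like cluster CXCL14 was higher in CT-LCG, just under 2-fold, where 4.25% of all genes were at least 2-fold higher. Animal, capture and fibre type cannot be told apart in any of these values.

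The receptors CCR6 and CCR10 were hardly captured. CCR6, the receptor of CCL20, had 8 UMIs in the macrophage- or dendritic-like cells of CT-LCG, of 9 in that library, and 1 UMI in the whole FT-LCG library. IL17F, a cytokine of T cells, was among the 10 leading genes of that cluster. With 20 principal components a T cell-like cluster of 55 and 47 cells stood beside a macrophage- or dendritic-like one of 30 and 77, so values of CT-LCG and FT-LCG in the cluster used here compare different mixes of cells. CCR10, the receptor of CCL27, had 21 and 57 UMIs over all cells, with its highest level in the same cluster, 0.230 and 0.113. CXCR4, which has been linked to CXCL14, was at 14.0 and 1.96 in that cluster and at 0.549 and 0.242 in outer root sheath-like cells. At these counts no order of the keratinocyte classes by CCR6 or CCR10 could be read.

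Atypical receptors bind chemokines without the usual signalling and can clear them, and ACKR3 and ACKR4 were higher in basal than in spinous cells. ACKR3, which binds CXCL12, was 2.30 in the basal bin of CT-LCG and 2.20 in that of FT-LCG, and 0.280 and 0.306 in the spinous bin. ACKR4, which binds CCL19, CCL21 and CCL25, was 0.375 and 0.320 in basal cells and 0.004 and 0.007 in spinous cells. Of 23 listed receptors 20 were features, and 5 had at least 100 UMIs in each library. Beside ACKR3, ACKR4 and CXCR4 these were ACKR1, at 8.30 and 8.18 in endothelial-like cells, and CXCR2, at 0.102 and 0.091 in the spinous bin.

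Of the chemokine ligands, the 3 members included, 31 were listed, 21 were features and 9 reached 100 UMIs in each library. CXCL8, which draws neutrophils, had its highest level, 45.4 (CT-LCG) and 30.9 (FT-LCG), in the macrophage- or dendritic-like cluster, and so had CCL5, which attracts lymphocytes, at 5.46 and 6.30. CCL21, the lymphatic ligand of CCR7, was 26.1 and 16.1 in endothelial-like cells, and CXCL12 reached 2.86 in the fibroblast-like cells of FT-LCG. In the spinous bin CXCL8 stood at 0.095 and 0.054. The classes ranked here were the basal and spinous bins, the granular layer-like cluster and the follicle, cycling, stromal and immune clusters. Of the 9 ligands, CCL20 had its highest mean level in the spinous bin and CCL27 in the basal bin. No other ligand of the 9 was highest in an epidermal class among those ranked. The transitional and granular bins and the unnamed clusters were not ranked.

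The 3 members did not follow each other. Over 32 profiles (16 clusters in each of the 2 libraries) the correlation of log2 levels was 0.07 between CCL20 and CCL27, 0.09 between CCL27 and CXCL14 and -0.31 between CCL20 and CXCL14. The genes most like CCL20 among 9946 were LOC102181148 (Pearson r of 0.87), UBALD1 (0.85), TRIM40 (0.82), PERP (0.82), a desmosome-associated target of p53, and TRIM10 (0.82). Those most like CCL27 were LOC102180869 (0.88), FAM213A (0.85), ACKR4 (0.80), KRT14 (0.80) and FCGBP (0.79). Those most like CXCL14 were BGN (0.91), a matrix proteoglycan, ISM1 (0.88), EDNRA (0.88), the receptor of endothelin, COL5A2 (0.85), a fibrillar collagen, and RAB11FIP2 (0.85). The profiles share libraries, depth and free RNA, so these values are descriptions.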

How the data were processed

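Skin of 1 CT-LCG and 1 FT-LCG goat was dissociated and run on the 10x 3' V3 chemistry. The authors deposited UMI counts from Cell Ranger (3.0.2 in the matrix header), with both libraries in 1 matrix. The submitters' processing notes name the builds GRCh38 and GRCm38. The goat build is not given in the sources used here, so no coordinates or sequences are printed. Fibre type and cells came from the authors' table of kept cells, for which they had used limits on genes per cell (500) and on mitochondrial content. Every left-out barcode had 500 genes or fewer. The members and the gene lists were chosen with earlier results of these data known.

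Clusters used 2000 variable genes without the 4 lists, 10 principal components, Harmony (rewritten in numpy), 20 neighbours and Leiden (leidenalg 0.10.2) with the resolution raised by 0.1 until there were 16 clusters or more. A cluster was named where 3 or more markers of a list were detected, their mean log2 fold was 1 or more and that list had the most genes among its 10 leading genes. Layer cells had at least 10 UMIs of KRT14 and KRT10. Doublets were not removed, and an alternative left out the top 5% of cells by Scrublet score (scanpy 1.11.5). Named genes were the 3 members, the listed genes highest in a class described, the receptors CCR6, CCR10 and CXCR4, and the 5 genes most like each member. Library ratios have exact conditional binomial intervals. The fold calls, the exact intervals and the thinning were tested on simulated counts, and the likeness of profiles was not. The simulated class totals had no spread between cells. How the intervals behave for a gene held by few cells, such as CCL20, was therefore not tested. In the gene table CCL27 has IL11RA and LOC108636573 as its neighbours, neither overlapping it. Thinning left out shallower cells: 0 of CT-LCG and 6 of FT-LCG among basal cells, 59 and 6 among spinous, 4 and 35 among outer root sheath-like, 6 and 13 among fibroblast-like and 6 and 18 among endothelial-like cells.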

Additional observations from a re-analysis of the deposited data

Results flagged for a closer look

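CXCL14 differed between FT-LCG and CT-LCG in opposite directions in 2 cell types. The log2 ratio of FT-LCG to CT-LCG was 2.34 in outer root sheath-like cells and -0.96 in fibroblast-like cells. With 1 library per type the difference between these ratios was not tested. In the fibroblast-like cluster 59 of 109 cells in CT-LCG and 14 of 119 in FT-LCG carried a papilla gene. The log2 ratio was 0.56 in those cells and -0.79 in the cells without one, both added after the data were seen. The part of the cell mix in the value of the whole cluster was not tested.

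Between basal and spinous cells CXCL14 had a log2 ratio of 1.07 (CT-LCG) and -2.18 (FT-LCG), and the difference was likewise not tested. The CT-LCG value rests on 23 UMIs in its basal cells.

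The barcodes that the authors left out, 2659 of CT-LCG and 1589 of FT-LCG, were used in no class and held all 3 genes. In CT-LCG they had 4.46 UMIs of CCL20, 2.39 of CCL27 and 1.62 of CXCL14 per 10000, and in FT-LCG 8.18, 5.82 and 5.57. These levels are above those of CCL27 and CXCL14 in the spinous bin, 0.150 and 0.287 for CCL27 and 0.252 and 0.375 for CXCL14. For CCL20 they are also above the level of the basal bin, 2.46 and 6.88.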

How the results depend on the processing

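Values are log2 ratios. Of 158 alternative values, 113 kept their direction and stayed within the spread, 41 moved and 4 reversed, and the cause was not tested. For ratios between classes the spread was the SD over the 2 libraries, and for ratios between goats the counting interval. The value of 1 library alone always lies within that SD of the mean, so it could not count as moved. Other bin limits do not touch the clusters. CXCL14 in FT-LCG against CT-LCG thus had to stay at 2.34 in outer root sheath-like and -0.96 in fibroblast-like cells. Values of both kinds are among the 113. For CXCL14 the SD was 2.30 in spinous and 3.39 in fibroblast-like cells against basal cells, so large shifts there stayed within it. Keeping only cells with at least 1000 genes moved none of 15.

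Reversed values were these. CXCL14 in spinous against basal cells had a mean of -0.55 over the libraries, and 1 library alone gave 1.07 (CT-LCG) or -2.18 (FT-LCG). With limits of 0.2 and 0.8 on the KRT10 share and 50 UMIs of LOR per 10000, CCL20 in granular against basal cells was -1.70 in place of 0.86. Chosen after seeing the data, CCL27 in FT-LCG against CT-LCG basal cells was -0.13 at KRT10 shares of 0.02 to 0.1 in place of 0.57, and CXCL14 in fibroblast-like cells with a papilla gene was 0.56 in place of -0.96.

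Against basal cells, CCL27 in spinous cells (-6.66) was -5.77 after thinning, -5.56 as a mean over cells and -6.13 with the other limits. CCL27 in the granular bin (-4.29) was -6.20 with the other limits and, added later, -7.02 in the granular layer-like cluster. CCL20 in outer root sheath-like cells (-2.38) was -1.73 after thinning, -1.51 as a mean over cells, -2.68 with 20 principal components, -3.17 without Harmony and -3.01 at a resolution 0.3 higher. CCL27 there (-5.01) was -6.40 with 10% of the library mean subtracted and -6.57 without Harmony.

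For FT-LCG against CT-LCG, CCL27 in basal cells (0.57) was 0.44 as a mean over cells, 0.64 with the other limits, 0.63 with 20 principal components, 0.74 without Harmony, 0.45 at the higher resolution and, added later, 0.97 in the basal epidermal-like cluster alone. CXCL14 in basal cells (3.83) was 2.80 with the other limits, 5.06 with 20 principal components and 4.82 at the higher resolution. CXCL14 in outer root sheath-like cells (2.34) was 1.92 after thinning, 2.06 as a mean over cells, 1.72 with 20 principal components, 1.16 without Harmony and, added later, 1.78 in cells with SFRP1. CXCL14 in fibroblast-like cells (-0.96) was -0.83 after thinning, -1.07 with 20 principal components and, added later, -0.79 in cells with no papilla gene. CCL20 in basal cells (1.49) was 1.01 after thinning, 2.10 with 10% subtracted, 1.23 with 20 principal components, 1.35 at the higher resolution and, added later, 1.78 without the highest 2% of cells. CCL20 in spinous cells (0.36) was 0.44 after thinning, 0.47 as a mean over cells, 0.39 with 10% subtracted, 0.32 with the other limits and with 20 principal components, 0.33 at the higher resolution and 0.32 without the cells of high Scrublet score.

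Subtraction and thinning could not be run where a level came to 0 or less: subtraction for CCL27 in spinous cells, CCL20 in outer root sheath-like cells and 4 ratios of CXCL14, and thinning for those 4 ratios of CXCL14 (3 classes against basal cells, and FT-LCG against CT-LCG in basal cells).
No paired analysis was possible because each fibre type has 1 library.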

Other observations

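In basal cells thinned to 5000 UMIs, CCL27 and CCL20 were found together slightly more often than the product of their separate shares. In CT-LCG 75.9% of 133 cells held CCL27, 20.3% held CCL20 and 17.3% held both, where the product of the shares is 15.4%. In FT-LCG the shares over 1385 cells were 71.9%, 25.3% and 19.8%, with a product of 18.2%. In outer root sheath-like cells at the same depth, 23.1% of 39 cells in CT-LCG and 52.3% of 411 cells in FT-LCG held both CXCL14 and SFRP1, with products of 15.8% and 49.1%. Basal cells with an SFRP1 UMI had CXCL14 at 0.101 (CT-LCG) and 1.99 (FT-LCG), and those without at 0.133 and 1.39, where the values of CT-LCG rest on 8 and 15 UMIs.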
